A study of Mus musculus with 6 samples.

Results

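The genes described here encode the subunits of the mitochondrial respiratory chain and of ATP synthase. They were taken by name from the annotation of the arrays, as the genes whose symbol begins with Ndufa, Ndufb, Ndufc, Ndufs, Ndufv, Uqcr, Cox4, Cox5, Cox6, Cox7, Cox8 or Atp5, together with Sdha, Sdhb, Sdhc, Sdhd and Cyc1. This gave 90 of the 19930 genes that were measured under a single symbol. Of the 90 genes, 83 encode structural subunits and 7, Ndufaf1 to Ndufaf7, encode factors that assemble complex I. The structural subunits comprised 34 of complex I, 4 of complex II, 9 of complex III, 19 of complex IV and 17 of ATP synthase; Ndufa4, in spite of its name, was counted as a subunit of complex IV. Cox7c, Ndufb4 and Ndufb4b fit the same names but appeared solely on features that carry several symbols, and they are not among the 90.

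Expression was measured with Mouse Gene 1.0 ST arrays in H10 and C8, 2 mouse macrophage lines derived from RAW264.7 cells, after 2 days of culture with sRANKL at 60 ng/mL, with 3 arrays for each line. sRANKL is the soluble form of the cytokine that drives osteoclastogenesis (OCG). H10 cells fuse into multinucleated osteoclasts under sRANKL and C8 cells do not. Both lines carry Lifeact-mEGFP, a green fluorescent label of the actin cytoskeleton, and puromycin resistance from a retroviral vector, and each was grown from limiting dilution, so that each phenotype rests on 1 line. Neither the labels nor the methods tell if separate cultures were used for the arrays of a line, so the p-values speak of the spread among arrays, and that spread may be technical. Values are log2 values after RMA, the authors' normalization, and differences are log2 fold changes, H10 minus C8; a positive value is higher in H10 cells. A gene with several features, the probe sets of the array, is represented by the brightest. Each difference was tested with limma, two-sided, and called at an adjusted p under 0.05 over all 35545 features. On the second principal component of all features the replicate 1 array of each line stood apart from the other arrays, and values without both of them are given with the last results.

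Complexes I to IV of the inner mitochondrial membrane pass electrons from NADH and succinate to oxygen. All but complex II pump protons across this membrane as they do so. ATP synthase lets the protons flow back through its membrane part, F0, and uses their energy to make ATP in its catalytic head, F1. Most subunits are encoded in the nucleus, on many chromosomes, and a small set of core subunits is encoded by mitochondrial DNA. Osteoclasts are known as cells rich in mitochondria, and mitochondrial biogenesis through the coactivator PGC-1β is part of their differentiation.

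The respiratory chain genes differed little between H10 and C8 cells after 2 days with sRANKL. By limma 1 of the 90 genes, Cox5b, was higher in H10 cells, 0 were lower and 89 did not pass the test. Across all genes, 1.85% were called higher and 1.04% lower. At an unadjusted p under 0.05, 13 members were higher and 3 lower, where 6.1% of all genes were higher and 7.67% lower. The log2 fold changes of the members ran from -0.27 to 0.33, and 54 of the 90 were within 0.1 of 0 in either direction. Their 95% intervals were narrow (standard errors, SE, of 0.05 to 0.17 with a median of 0.07). For all 90 members the interval lay inside a fold of 1.5 in either direction. These bounds are for array values. Atp5d averaged 14.19 in H10 cells, where the highest value of all features was 14.7. Whether features this bright still respond fully to RNA amount was not measured. In cultured cells measured in bulk, a difference in the number of cells of one kind and a difference in RNA per cell cannot be told apart.

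The small differences leaned towards H10 cells. The log2 fold change was positive for 64 members and negative for 26, so that 71.1% were positive, against 39.4% of all genes. The median log2 fold change was 0.05 over the members (middle quartiles -0.02 and 0.12) and -0.03 over all genes, and it was 0.05 under quantile normalization and under median centring too. For 23 members, or 25.6%, all 3 H10 arrays lay above all 3 C8 arrays, where 7.74% of all genes did so. For 6 members, or 6.67%, all H10 arrays lay below all C8 arrays, where 12.7% of all genes did. Most members are bright, 86 of the 90 having a mean above the table median of 7.7, and among all genes above that median the shares were 11.2% above and 16.5% below. On single arrays, the median deviation of the members from their own means was 0.05, 0.01 and 0.02 in H10 against 0.02, -0.04 and -0.05 in C8 cells. The lines therefore overlapped in this measure: the replicate 1 array of C8 lay within the range of the H10 arrays, and the other two C8 arrays stood below them.

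**Figure D1:**
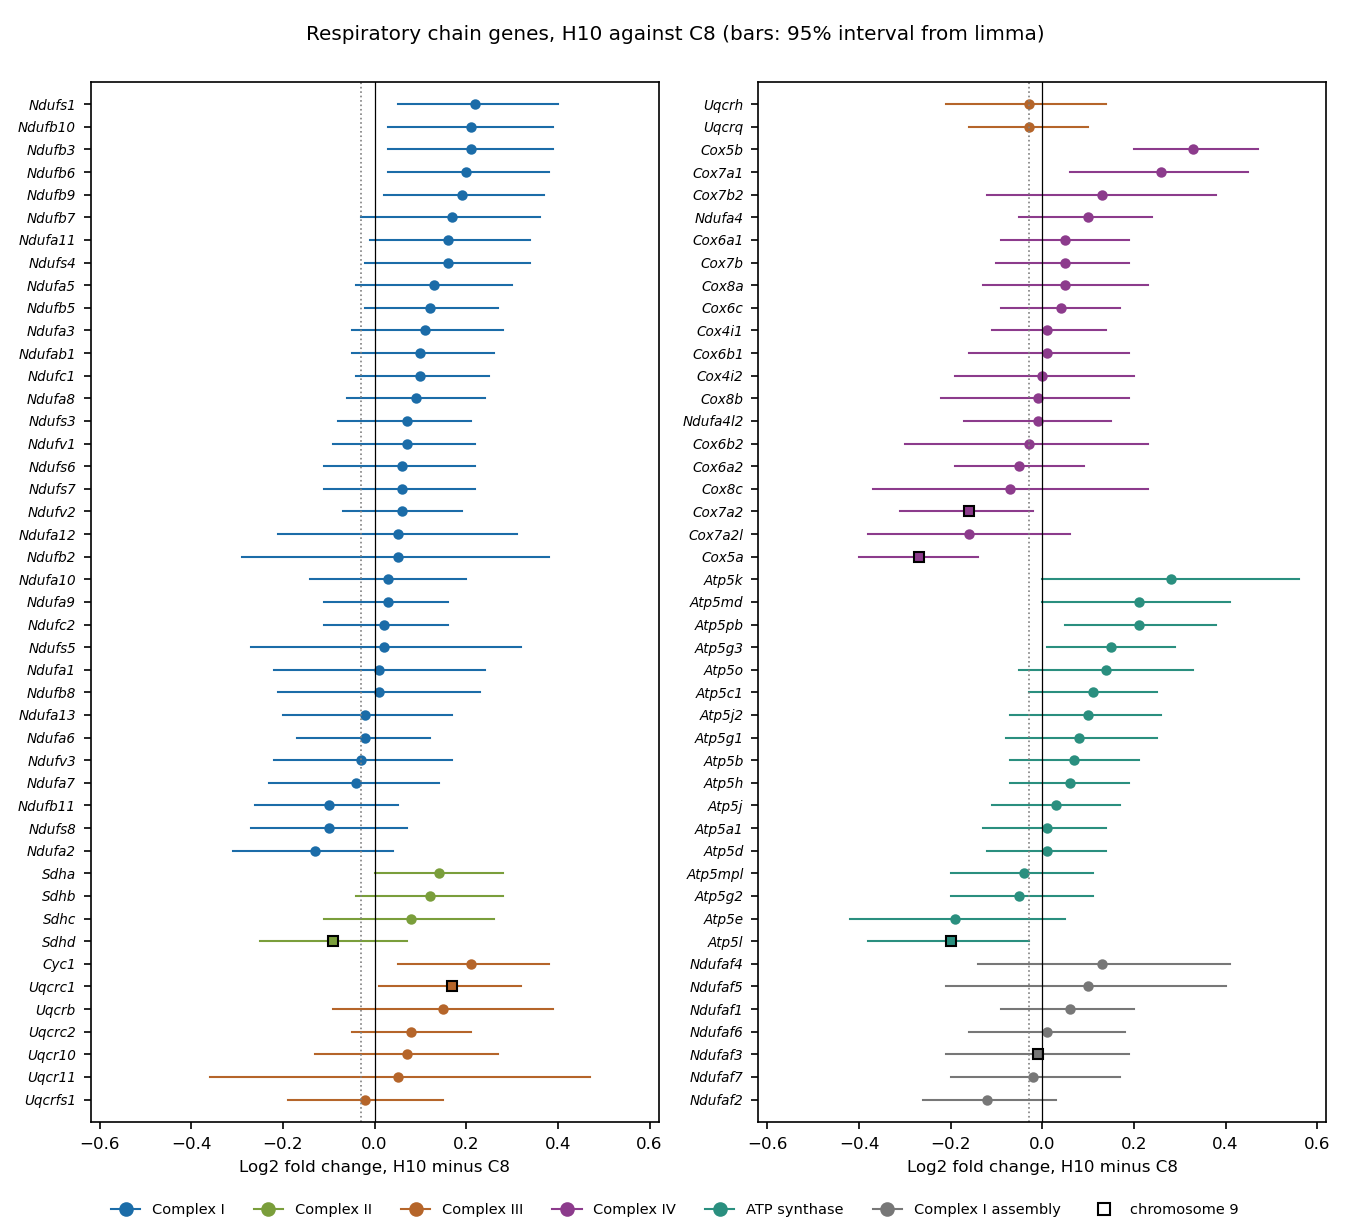
Log2 fold change (H10 minus C8, horizontal axis) of each of the 90 genes, arranged by complex, with bars for the 95% interval from limma. Most points lie just to the right of 0, Cox5b lies farthest to the right at 0.33 and Cox5a farthest to the left at -0.27.

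Promoter sequences are shown for members that stood at the ends of this range and for members on chromosome 9, so that the letters can be read beside the values below. The windows are those of RefSeq on GRCm38.p6 and hold 300 bases, 250 before and 50 after the start of the gene; 73 of the 90 members had one, with 78 windows in all. NRF1, the ETS factor GABP and YY1 are transcription factors known to bind promoters of respiratory chain genes. Their cores were searched as the palindrome of GCGCA and its reverse complement for NRF1, CCGGAAG for ETS factors and AAGATGGC for YY1, on both strands and with no mismatch, and none of these strings contains another. The capitals mark the match. Atp5k, the member of ATP synthase with the highest log2 fold change, and Uqcrc1, the member on chromosome 9 that stood above 0, hold the NRF1 string. The stretch shown lies for Atp5k at chr5:108434410-108434479 on the minus strand and for Uqcrc1 at chr9:108936668-108936697 on the plus strand, past the start of the gene. The window of Atp5k holds the ETS string as well, outside the stretch shown.
Atp5k: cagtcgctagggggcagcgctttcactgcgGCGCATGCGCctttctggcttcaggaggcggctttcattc
Uqcrc1: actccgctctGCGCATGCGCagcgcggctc
Atp5l at chr9:44920918-44920984 and Sdhd at chr9:50603859-50603925, both on the minus strand of chromosome 9, hold the ETS string read from the other strand.
Atp5l: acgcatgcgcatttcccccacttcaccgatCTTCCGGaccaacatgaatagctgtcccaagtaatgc
Sdhd: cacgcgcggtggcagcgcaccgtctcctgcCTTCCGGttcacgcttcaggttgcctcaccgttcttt
Of the other members on chromosome 9, Cox5a, Cox7a2 and Ndufaf3 hold none of the 3 strings. Cox5b and Cox5a, whose differences were the largest in each direction, hold none of the 3 strings in their windows. The 100 bases before the start lie at chr1:36691387-36691486 for Cox5b and at chr9:57521132-57521231 for Cox5a, both on the plus strand.
Cox5b: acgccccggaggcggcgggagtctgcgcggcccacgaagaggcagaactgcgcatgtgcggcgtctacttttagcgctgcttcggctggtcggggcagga
Cox5a: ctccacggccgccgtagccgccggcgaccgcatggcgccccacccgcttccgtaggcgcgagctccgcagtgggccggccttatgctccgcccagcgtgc
The NRF1 string stood in 7 of the 73 members with a window (9.59%), against 1.07% of all 27025 genes with one and 1.47% of protein-coding genes. These 7 had log2 fold changes from -0.05 (Atp5g2) to 0.28 (Atp5k). The ETS string stood in 18 members (24.7%, against 9.93% of all and 12.9% of protein-coding genes) and the YY1 string in 10 (13.7%, against 3.19% and 3.57%). Among the genes of mitochondrial ribosomal proteins the shares were 4.35%, 37.7% and 17.4%. The median share of G and C was 58.0% in the members, 52.7% in all promoters and 56.3% in those of protein-coding genes. The median log2 fold change was 0.06 for the 32 members with any of them and 0.05 for the 41 with none. A match is a description of the letters, and binding was not measured.

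Complex I, which oxidizes NADH, is the largest of the complexes. Of its 34 measured subunits 0 were called in either direction by limma (5 higher and 0 lower at an unadjusted p under 0.05), 27 had positive and 7 negative log2 fold changes, and the median was 0.06 (range -0.13 to 0.22). All H10 arrays lay above all C8 arrays for 9 of the 34 (26.5%), and the reverse held for 0. Among all genes the shares were 7.74% above and 12.7% below, and among genes brighter than the table median 11.2% and 16.5%. Ndufs1 is the largest core subunit and carries iron-sulphur clusters. Its log2 values were 11.69, 11.56 and 11.62 on the H10 arrays against 11.49, 11.40 and 11.31 on the C8 arrays, without overlap. Its log2 fold change of 0.22 (SE 0.07, 95% interval 0.05 to 0.40) was the largest in the complex, with an adjusted p = 0.271. Ndufv1, which holds the flavin that takes up electrons from NADH, had 11.74, 11.64 and 11.71 in H10 against 11.69, 11.56 and 11.64 in C8 cells. Here the arrays of the lines overlapped, and the log2 fold change was 0.07 (adjusted p = 0.816). Among the 6 core subunits measured, which form the flavin and iron-sulphur arm, the median was 0.06, as it was among the 28 accessory subunits, which surround the core. The accessory subunit Ndufb6 had 12.68, 12.67 and 12.69 in H10 against 12.35, 12.57 and 12.51 in C8 cells, a log2 fold change of 0.20 (adjusted p = 0.337). Its H10 arrays were nearly level, and the C8 arrays, all lower, were more spread. Ndufb3, Ndufb9 and Ndufb10, further accessory subunits, had log2 fold changes of 0.21, 0.19 and 0.21, each with no overlap between the lines. At the other end, Ndufa2, an accessory subunit, had 11.41, 11.33 and 11.28 in H10 against 11.53, 11.37 and 11.52 in C8 cells. A C8 array lay among the H10 arrays, and the log2 fold change was -0.13 (95% interval -0.31 to 0.04, adjusted p = 0.59).

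The complex I assembly factors, which build the complex and are not part of it, were nearly balanced in sign. Of the 7, 4 had positive and 3 negative log2 fold changes, from -0.12 (Ndufaf2) to 0.13 (Ndufaf4), with a median of 0.01, and 0 were called by limma (0 in either direction at an unadjusted p under 0.05).

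Complex II, or succinate dehydrogenase, links the respiratory chain to the tricarboxylic acid cycle and is encoded by 4 nuclear genes. By limma 0 of the 4 were called (1 higher at an unadjusted p under 0.05). Sdha, the flavoprotein that oxidizes succinate, had log2 values of 12.50, 12.43 and 12.52 in H10 against 12.35, 12.35 and 12.32 in C8 cells, a log2 fold change of 0.14 (SE 0.06, adjusted p = 0.402). Sdhb, the iron-sulphur subunit, had 11.55, 11.46 and 11.47 in H10 against 11.45, 11.33 and 11.34 in C8 cells, a log2 fold change of 0.12 (adjusted p = 0.582). In both genes all H10 arrays lay above all C8 arrays, for Sdhb by a narrow margin. The membrane anchors went different ways: Sdhc showed a log2 fold change of 0.08 (adjusted p = 0.828) and Sdhd, which lies on chromosome 9, -0.09 (adjusted p = 0.724), and in both the arrays of the lines met or overlapped.

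Complex III carries electrons from ubiquinol to cytochrome c. Of its 9 subunits 0 were called by limma (2 higher and 0 lower at an unadjusted p under 0.05), 6 had positive log2 fold changes, and the median was 0.07 (range -0.03 to 0.21). Cyc1 encodes cytochrome c1, the subunit that hands the electron on. Its log2 values were 12.17, 12.09 and 12.17 in H10 against 12.01, 11.93 and 11.85 in C8 cells, a log2 fold change of 0.21 (SE 0.07, 95% interval 0.05 to 0.38, adjusted p = 0.254). The lines did not overlap, and the C8 arrays were the more spread. Uqcrfs1, the Rieske iron-sulphur protein that takes the electron from ubiquinol, had 10.28, 10.11 and 10.18 in H10 against 10.29, 10.18 and 10.16 in C8 cells, a log2 fold change of -0.02 (adjusted p = 0.967). These values were fully interleaved. The small subunits Uqcrh and Uqcrq had log2 fold changes of -0.03 each, and in Uqcrq, whose values were tightly grouped, all H10 arrays (11.13 to 11.15) lay below all C8 arrays (11.16 to 11.20).

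Complex IV, cytochrome c oxidase, reduces oxygen, and it held the members that differed most in each direction. Of its 19 measured members 11 had positive and 8 negative log2 fold changes, with a median of 0.01, 1 was called higher and 0 were called lower. At an unadjusted p under 0.05, 2 were higher and 2 lower. All H10 arrays lay above all C8 arrays for 3 members (15.8%) and below them for 3 (15.8%), where 7.74% and 12.7% of all genes did so. Cox5b encodes a subunit that binds zinc on the matrix side of the enzyme. Its log2 values were 13.01, 12.95 and 12.99 on the H10 arrays against 12.62, 12.67 and 12.66 on the C8 arrays. Each line was tightly grouped and the H10 arrays all stood above, by more than the spread within either line. The gene rose in H10 cells by 1.26-fold (log2 fold change 0.33, SE 0.06, 95% interval 0.20 to 0.47, adjusted p = 0.0401 by limma). The other feature of Cox5b had 12.95, 12.89 and 12.89 in H10 against 12.64, 12.62 and 12.61 in C8 cells, a log2 fold change of 0.29 that did not pass (adjusted p = 0.065). The call on the brighter feature was lost when any single array was left out (adjusted p = 0.0746 to 0.196, log2 fold change 0.32 to 0.35), and it was lost under median centring too (adjusted p = 0.0528).

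Cox5a encodes the partner subunit, which also sits on the matrix side of the enzyme. In this gene the order of the lines was turned. Its log2 values were 11.47, 11.45 and 11.48 on the H10 arrays against 11.73, 11.76 and 11.73 on the C8 arrays, a log2 fold change of -0.27 (SE 0.05, 95% interval -0.40 to -0.14). The SD within each line was 0.02, and every H10 array lay below every C8 array. By limma over all features the adjusted p was 0.0681, and it was 0.0255 when dim features were left out and 0.022 with an intensity trend and a robust prior (0.022 to 0.276 over the alternatives run). Cox5a lies on chromosome 9, as does Cox7a2, a small ubiquitous subunit of the oxidase. Cox7a2 had 12.17, 12.09 and 12.20 in H10 against 12.30, 12.36 and 12.29 in C8 cells, again with no overlap, and a log2 fold change of -0.16 (adjusted p = 0.358). Cox7a2l, which takes part in joining the complexes into supercomplexes and lies on chromosome 17, had 9.12, 9.43 and 9.36 in H10 against 9.47, 9.44 and 9.48 in C8 cells. Its log2 fold change of -0.16 (adjusted p = 0.61) came with a replicate 1 array of H10 that was the lowest of the 6. In Cox4i1, a large subunit through which ATP regulates the oxidase, the values were 11.86, 11.85 and 11.86 in H10 against 11.85, 11.84 and 11.84 in C8 cells, a log2 fold change of 0.01 (95% interval -0.11 to 0.14, adjusted p = 0.971). The 10 ubiquitous subunits had a median of 0.04, with 8 positive and 2 negative, the 2 being Cox5a and Cox7a2.

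**Figure D2:**
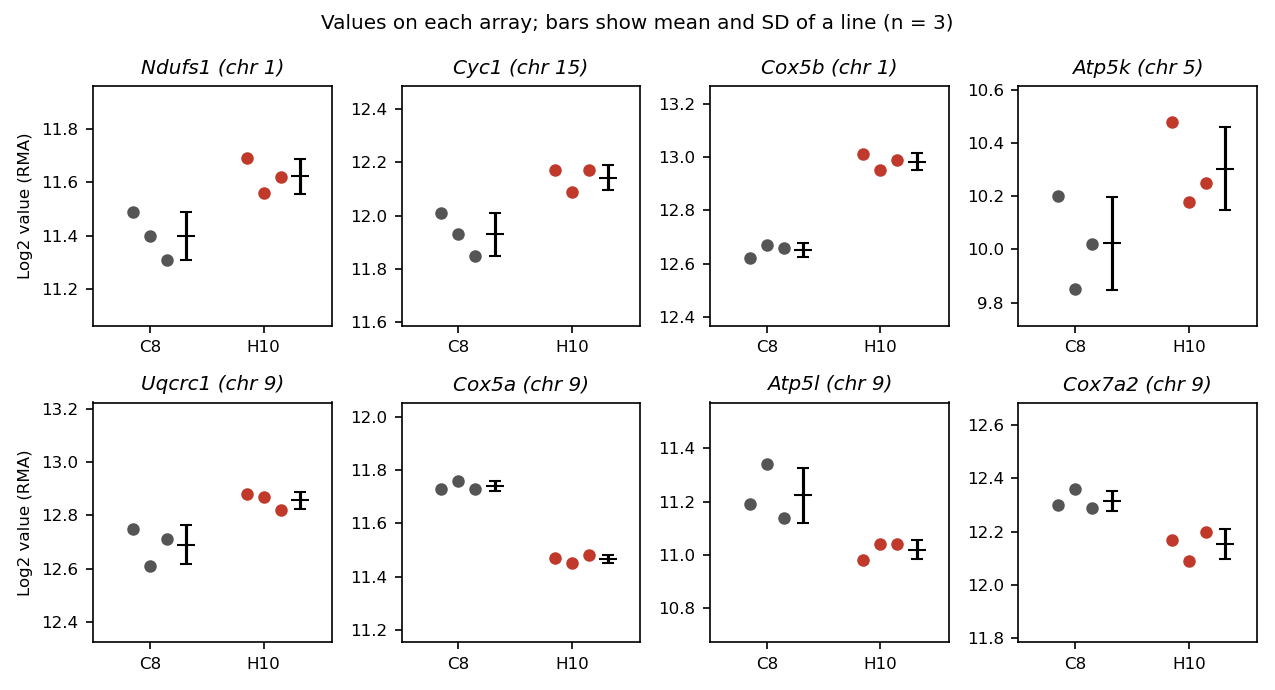
Log2 value (vertical axis, RMA) of single members for each C8 and H10 array, of 8 members; bars give the mean and SD over the 3 arrays of a line, and every panel spans the same log2 range. All H10 points lie above all C8 points for Cox5b and below them for Cox5a, and the points of Atp5k overlap.

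Several subunits of complex IV have isoforms made in heart, skeletal muscle, lung or testis. Of the 8 such isoforms measured, 3 had positive and 5 negative log2 fold changes (median -0.01, range -0.07 to 0.26) and 0 were called by limma (1 higher at an unadjusted p under 0.05). Cox6b2, Cox7b2, Cox8b and Ndufa4l2 lay below the median of every array, and background was not measured, so that the sizes of their differences are uncertain. Cox7a1, the heart and muscle counterpart of Cox7a2, was the exception in size. It had log2 values of 9.23, 9.28 and 9.30 in H10 against 9.16, 8.91 and 8.97 in C8 cells, a log2 fold change of 0.26 (SE 0.08, 95% interval 0.06 to 0.45, adjusted p = 0.253). All H10 arrays lay above all C8 arrays, the replicate 1 array of C8 being close to them. Cox4i2, the isoform of lung and of low oxygen, showed a log2 fold change of 0.00 (adjusted p = 0.992), and the muscle isoform Cox6a2 had -0.05 (adjusted p = 0.852). Of 6 further genes of striated muscle, such as Ckm and Acta1, 0 were called in either direction, as at an unadjusted p under 0.05.

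ATP synthase had 17 measured subunits, of which 0 were called by limma (3 higher and 1 lower at an unadjusted p under 0.05), 13 had positive and 4 negative log2 fold changes, and the median was 0.07 (range -0.20 to 0.28). All H10 arrays lay above all C8 arrays for 6 of them (35.3%) and below for 1 (5.88%). Among all genes the shares were 7.74% above and 12.7% below, and among genes brighter than the table median 11.2% and 16.5%. In the F1 head, the α subunit gene Atp5a1 had log2 values of 13.11, 13.05 and 13.09 in H10 against 13.09, 13.07 and 13.07 in C8 cells, a log2 fold change of 0.01 (95% interval -0.13 to 0.14, adjusted p = 0.985). The catalytic β subunit gene Atp5b had 14.18, 14.17 and 14.18 in H10 against 14.06, 14.16 and 14.10 in C8 cells, a log2 fold change of 0.07 (adjusted p = 0.767). Values of the α subunit were level between the lines, and the β subunit stood higher in H10 cells by 0.07, near the SD of the C8 arrays of 0.05. Over the 5 F1 subunits the median was 0.01. The c subunits, which form the rotating ring, are encoded by Atp5g1, Atp5g2 and Atp5g3, with log2 fold changes of 0.08, -0.05 and 0.15. Over the 9 subunits of the stalk and the membrane part the median was 0.10, and these held both ends of the range. Atp5k, the e subunit, which helps ATP synthase to pair into dimers, had 10.48, 10.18 and 10.25 in H10 against 10.20, 9.85 and 10.02 in C8 cells. Its log2 fold change of 0.28 (SE 0.12, adjusted p = 0.426) was accompanied by a wide spread, and the highest C8 array exceeded the lowest H10 array. Atp5pb, the b subunit of the outer stalk, had 13.12, 13.07 and 13.14 in H10 against 12.82, 13.00 and 12.87 in C8 cells, without overlap (log2 fold change 0.21, adjusted p = 0.27). Atp5md, a small subunit of the membrane part, had a log2 fold change of 0.21 as well (adjusted p = 0.418).

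Atp5l, the g subunit beside Atp5k in the membrane part, was the member of ATP synthase with the lowest log2 fold change. It had log2 values of 10.98, 11.04 and 11.04 in H10 against 11.19, 11.34 and 11.14 in C8 cells, a log2 fold change of -0.20 (SE 0.07, 95% interval -0.38 to -0.03, adjusted p = 0.324). The table names 6 features Atp5l, and all 6 had negative log2 fold changes, from -0.28 to -0.20, with adjusted p-values of 0.116 to 0.324. In each of the 6 every H10 array lay below every C8 array. Features of the same gene gave like values elsewhere too: 17 members had more than 1 feature, 42 features in all, and in each of the 17 genes the features shared 1 sign and differed by at most 0.09. Whether the features of one gene read separate transcripts, or also copies of the gene elsewhere in the genome, was not tested.

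**Figure D3:**
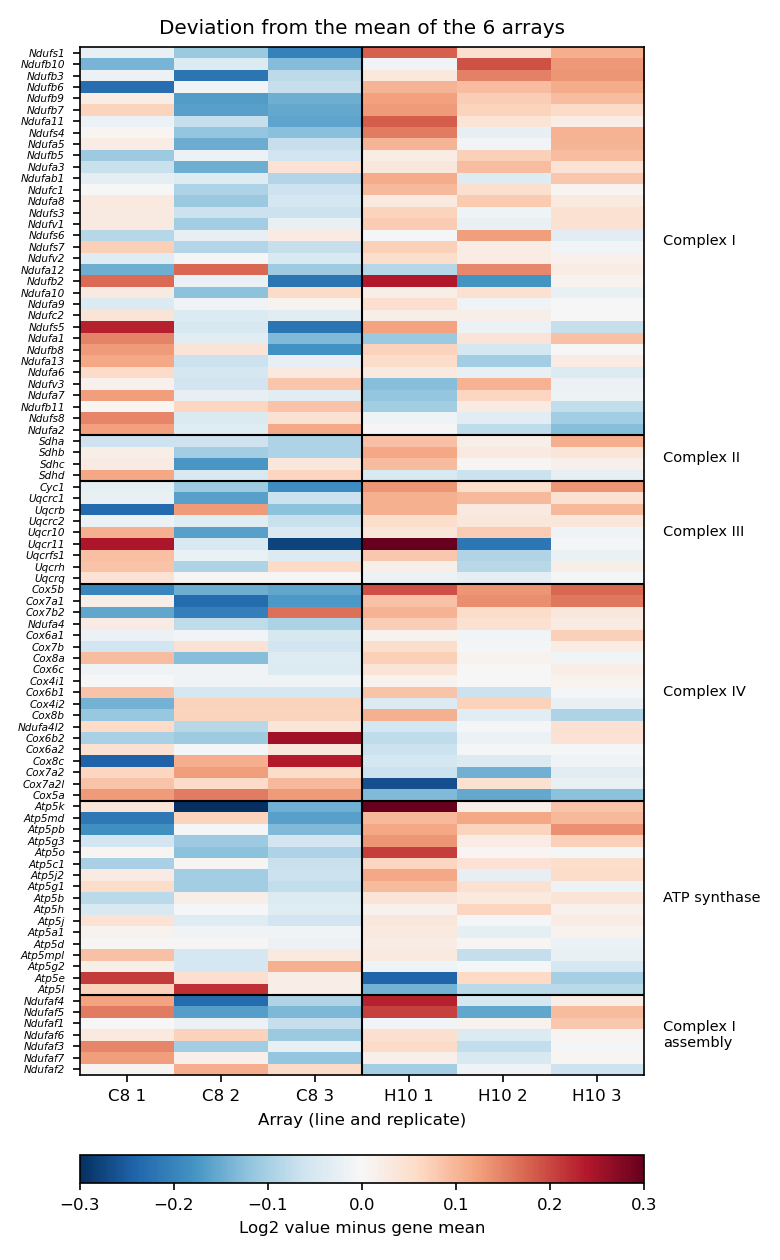
Deviation of the log2 value of each member (rows, by complex) from its mean over the 6 arrays (columns, C8 replicates to the left of the line and H10 replicates to the right). Most rows are pale, and the strongest contrasts between the lines are those of Cox5b and Cox5a, in opposite directions.

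The members on chromosome 9 mostly had negative log2 fold changes. They were Atp5l, Sdhd, Cox5a, Cox7a2, Ndufaf3 and Uqcrc1. By limma 0 of these 6 passed the test in either direction (1 higher and 3 lower at an unadjusted p under 0.05), 5 had negative log2 fold changes and the median was -0.13, whereas 63 of the 84 members on other chromosomes had positive log2 fold changes and their median was 0.06. All H10 arrays lay below all C8 arrays for 3 of the 6, Atp5l, Cox5a and Cox7a2, against 3 of the 84 elsewhere (3.57%). Counted over its 1164 genes, the chromosome leaned the same way, though unevenly along its length, as described below. Of these genes, 7.39% were called lower and 1.63% higher in H10 cells. All H10 arrays lay below all C8 arrays for 26.8% and above them for 5.93%. All 6 members are brighter than the table median. Among the 624 such genes of the chromosome, the shares without overlap were larger, 40.4% below and 8.65% above. Of these 624, 84 were called lower and 16 higher (232 lower and 51 higher at an unadjusted p under 0.05). The difference between members on chromosome 9 and elsewhere was not tested. Sdhd, which anchors complex II in the membrane, had 12.70, 12.68 and 12.72 in H10 against 12.86, 12.70 and 12.81 in C8 cells, so that an array of each line read 12.70 (log2 fold change -0.09). Ndufaf3, an assembly factor, had 10.66, 10.53 and 10.60 in H10 against 10.75, 10.50 and 10.58 in C8 cells, fully interleaved (log2 fold change -0.01, adjusted p = 0.98). Uqcrc1, a core protein of complex III, alone among the 6 members had a positive log2 fold change. It had 12.88, 12.87 and 12.82 in H10 against 12.75, 12.61 and 12.71 in C8 cells, all H10 arrays above, and a log2 fold change of 0.17 (95% interval 0.01 to 0.32, adjusted p = 0.37).

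Where these members lie along the chromosome was set beside the genes around them. The 624 genes of chromosome 9 brighter than the table median were placed in order, and the median log2 fold change of the 20 genes on each side of a member was taken. It was -0.20 around Atp5l, -0.33 around Sdhd and -0.37 around Cox5a, which lie between Kmt2a and Mto1. In that stretch, whose ends had been chosen with these data in view, 205 genes had a median of -0.35. Of these, 185 were negative and 63 were called lower. The remaining 419 genes of the chromosome had a median of -0.04 and 21 were called lower. Lower values were not confined to the stretch. Before Kmt2a, the median of the 20 genes on each side was -0.18 at Snx19, -0.38 at Vsig2 and -0.32 at Sorl1. Nearer the start of the chromosome, at Keap1, it was -0.03. On its brightest feature Atp5l stood at the level of its neighbours, and its other features, at -0.28 to -0.22, stood below that level. Cox5a, at -0.27, stood above its own neighbours, and Sdhd, at -0.09, stood well above its own. Around Cox7a2, just past the end of the stretch, the median was -0.09. Ndufaf3 and Uqcrc1 lie farther along, where the medians of the neighbours were 0.00 and -0.01. Over the 19 chromosomes that hold members, the median of the members was lowest on chromosome 9 and highest on chromosome 1, where all 5 members, Cox5b and Ndufs1 among them, had positive log2 fold changes (median 0.21) and the other bright genes a median of -0.02. It was below 0 also on chromosome 12 (-0.06, 2 members), chromosome 18 (-0.06, 2 members) and chromosome 17 (-0.02, 7 members). The number of copies of any of these genes was not measured.

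**Figure D4:**
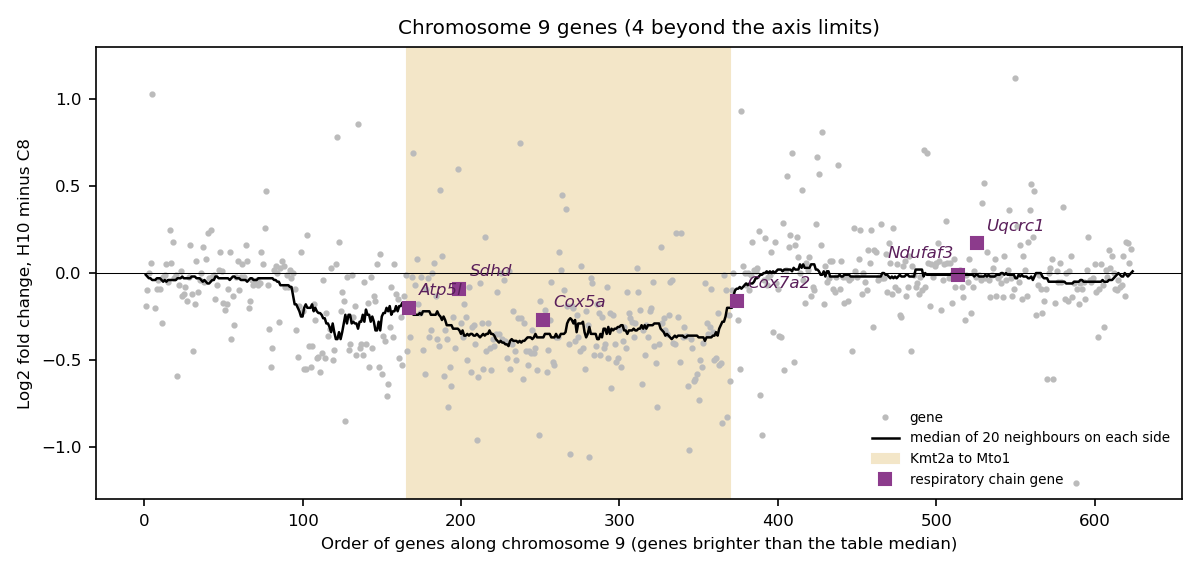
Log2 fold change (H10 minus C8, vertical axis) of the 624 brighter genes of chromosome 9 in their order along the chromosome (horizontal axis), with the running median of neighbouring genes as a line and the 6 members marked. The line dips below 0 ahead of Atp5l and around Atp5l, Sdhd and Cox5a, and lies near 0 around Ndufaf3 and Uqcrc1. Beyond the vertical limits lie 4 genes.

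In other lists of energy metabolism, 0 genes passed the test by limma apart from a glycolytic gene. Counts called unadjusted below are those at an unadjusted p under 0.05. For the subunits encoded by mitochondrial DNA, 2 of which were measured (0 called, 0 unadjusted), the log2 fold changes were 0.14 for COX2 (adjusted p = 0.688) and 0.14 for ND3 (adjusted p = 0.532). Of 40 assembly factors outside the names used here, 0 were called (3 higher and 2 lower unadjusted) and the median was 0.00. Among 77 mitochondrial ribosomal proteins, which translate the subunits encoded by mitochondrial DNA, 0 were called (5 higher and 4 lower unadjusted) and the median was 0.02, but single genes went either way: Mrpl47 showed a log2 fold change of 0.37 (adjusted p = 0.0828) and Mrps24 of -0.31 (adjusted p = 0.0509). Of 12 genes of coenzyme Q synthesis, which supply the electron carrier between complexes I or II and III, 0 were called (1 higher unadjusted) and the median was 0.06. Among 13 genes of cytochrome c, carriers and uncoupling, 0 were called (2 higher and 2 lower unadjusted). Slc25a4, which exchanges ADP for ATP across the inner membrane, had log2 values of 12.45, 12.45 and 12.46 in H10 against 12.20, 12.24 and 12.22 in C8 cells, a log2 fold change of 0.23 that did not pass (adjusted p = 0.111). Its lines were tightly grouped and did not overlap, whereas its close relative Slc25a5 showed a log2 fold change of 0.02 (adjusted p = 0.946). Etfa, on chromosome 9, and Etfb, on chromosome 7, the partner chains of the flavoprotein that feeds electrons from fatty acid oxidation into the chain, each had -0.22 (adjusted p = 0.251 and 0.309).

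Regulators of mitochondrial biogenesis were 19, of which 0 were called (2 higher and 1 lower unadjusted), 6 had positive and 13 negative log2 fold changes, and the median was -0.04. Ppargc1b encodes PGC-1β, the coactivator of mitochondrial biogenesis in osteoclasts. Its log2 values were 10.26, 9.86 and 9.95 in H10 against 9.71, 9.25 and 9.40 in C8 cells, a log2 fold change of 0.57 (SE 0.15, 95% interval 0.21 to 0.93, adjusted p = 0.166). The lines did not overlap, and the replicate 1 array was the highest in each line. Myc, a transcription factor of growth genes, had a log2 fold change of 0.77 (SE 0.30, adjusted p = 0.371). Its log2 values were 12.46, 11.98 and 12.10 in H10 against 12.08, 11.21 and 10.94 in C8 cells. Here the lines overlapped, and the replicate 1 array was again the highest in each line. The values for Tfam, which packages mitochondrial DNA and takes part in its transcription, were level (log2 fold change 0.00). Those of Nrf1, Gabpa and Esrra, which encode transcription factors of respiratory genes, gave -0.14, -0.02 and 0.03. Of 17 genes of the tricarboxylic acid cycle, 0 were called (0 higher and 2 lower unadjusted) and the median was 0.06. Glycolysis held 1 gene of 20 that was called, Hk3, a hexokinase of blood cells, which rose in H10 cells. Its log2 values were 9.18, 9.37 and 9.40 in H10 against 8.46, 8.26 and 8.54 in C8 cells, a rise of 1.86-fold with an adjusted p = 0.00922 (log2 fold change 0.90, SE 0.10). The median of the glycolytic genes was -0.03, and 14 of the 20 had negative log2 fold changes. Unadjusted, 1 was higher and 3 were lower: the muscle phosphofructokinase gene Pfkm had -0.26 (adjusted p = 0.235), the lactate transporter gene Slc16a3 had -0.21 (adjusted p = 0.35), and Pkm, the pyruvate kinase gene, which lies on chromosome 9, had -0.24 (adjusted p = 0.154).

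**Figure D5:**
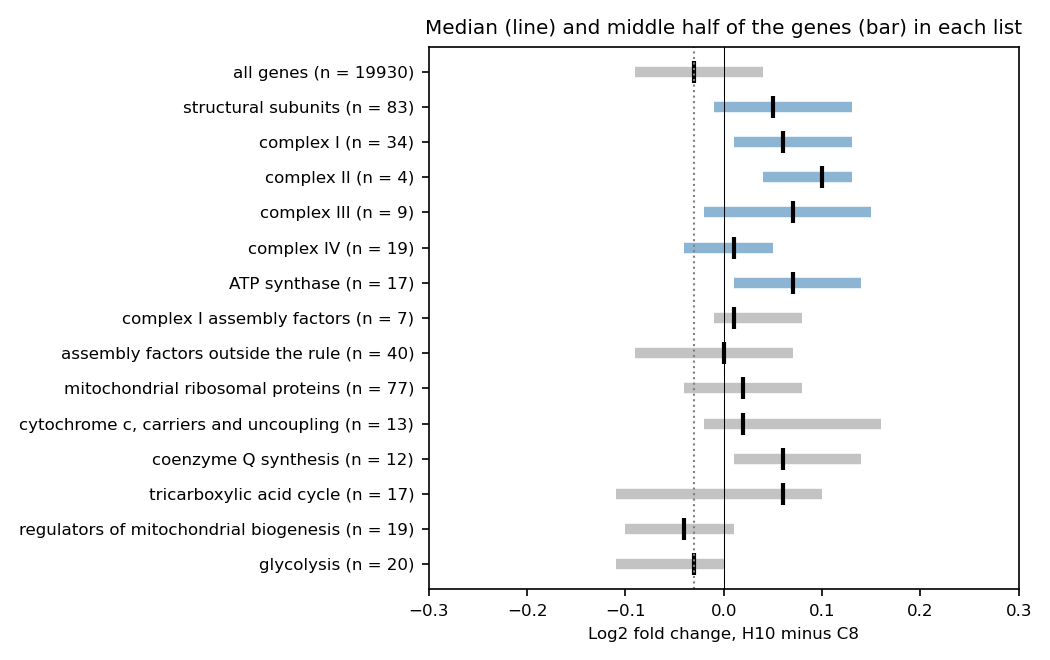
Median log2 fold change (H10 minus C8, horizontal axis; line) and middle quartiles (bar) of the genes in each complex and in related lists. The medians of the complexes lie between 0.01 and 0.10, and that of all genes is -0.03.

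The lines differed in osteoclast genes on the same arrays. Of 10 osteoclast markers, 6 rose in H10 cells, where 1.85% of all genes were called higher, and the median log2 fold change of the list was 0.87. The 6 ran from 0.47 for Acp5, the tartrate-resistant acid phosphatase, to 3.57 for Ctsk, the collagen-degrading cathepsin K. The other 4 did not pass: Mmp9 had -0.34, Itgb3 0.06, Calcr 0.07 and Nfatc1 0.14. Among 8 macrophage markers 1 rose, Adgre1, the gene of F4/80 (3 higher and 0 lower at an unadjusted p under 0.05). Itgam and Fcgr1 had log2 fold changes of 0.51 and 0.56 that did not pass (adjusted p = 0.142 and 0.159 by limma). No marker of other cells was called between the lines, of 5 markers of fibroblasts, 4 of T cells and 3 of B cells (0, 0 and 1 at an unadjusted p under 0.05), of which 1, 3 and 3 lay below the median of every array. Over all features, the SD of the difference between arrays ran from 0.20 to 0.29 within lines and from 0.30 to 0.34 between lines, and over the 90 members it was 0.07 to 0.15 within and 0.13 to 0.18 between. Without the replicate 1 arrays of both lines the median of the members was 0.06, the medians of complexes I, II, III, IV and ATP synthase were 0.08, 0.11, 0.06, 0.02 and 0.06, Cox5b showed a log2 fold change of 0.30 (adjusted p = 0.142) and 0 members were called.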

How the data were processed

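Per the methods, the authors extracted total RNA from H10 and C8 cells, hybridised it to Mouse Gene 1.0 ST arrays and normalized the raw data with RMA; the deposited values are log2 values, from 2.91 to 14.7, used here as given. Affymetrix Expression Console is named in the submitters' processing notes; the annotation release is not given in the sources used here. Arrays were grouped by line from the labels. Of 35545 features, 21781 had 1 gene symbol, 1621 several and 12143 none, and features with 1 symbol were counted as genes. Some genes that fit the names used are not reported here. For 21690 features the Entrez identifier was found in the GRCm38.p6 gene table. The test between lines was limma 3.58.1 under R 4.3.3 (lmFit and eBayes, two-sided, no filter, 4 residual and 2.57 prior degrees of freedom), after the methods of the study, with Benjamini-Hochberg adjustment over all features. The study also required a minimum fold change, which was not applied here. Arrays carry no read depth, and their number limits the precision. An exact permutation of 3 against 3 arrays cannot reach the threshold used and was not run.

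The members, the lists and the rule for naming genes were chosen with earlier results of these data known. Named genes are members past the test, members on chromosome 9, the highest and lowest of each complex, chief subunits, tissue isoforms, and the largest called changes and chief regulators of the other lists; further members named with their values were chosen after those were seen. Alternatives were each array left out, quantile normalization, a block for the replicate number, centring on array medians, a robust prior with an intensity trend, features kept if at least 3 arrays exceeded the table median, averaged features per gene, adjustment over 1 feature per gene, a threshold of 0.01, structural subunits alone and features of several symbols. The script was tested on simulated data. Python 3.11.15 with matplotlib 3.10.9 drew the figures.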

Additional observations from a re-analysis of the deposited data

How the results depend on the processing

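Under 17 alternatives, 522 values were recomputed, of which 476 kept their direction and their side of the threshold or moved by less than the spread between arrays. The number of members called higher was 0 with any array left out, 0 with the replicate block, 0 under median centring, 0 at an adjusted p under 0.01 and 0 without the replicate 1 arrays of both lines, a setting chosen after seeing the data; Cox5b had adjusted p-values of 0.151 with the block and 0.0528 under median centring. Cox5a passed when dim features were left out and with the intensity trend and robust prior, so that the number called lower, in all and on chromosome 9, was 1 under each. With each array left out in turn, the median log2 fold change ran from 0.05 to 0.10 for complex I (0.10 without C8 replicate 1), 0.05 to 0.13 for complex II (0.05 without C8 replicate 2), 0.04 to 0.09 for complex III (0.04 without C8 replicate 2), 0.01 to 0.03 for complex IV (0.03 without C8 replicate 3) and 0.06 to 0.07 for ATP synthase, and the median of the chromosome 9 members was -0.16 among structural subunits alone. Signs turned for members near 0, none of them called. With each array left out in turn, log2 fold changes ran from -0.05 to 0.02 for Ndufa4l2, -0.01 to 0.02 for Atp5a1, -0.06 to 0.02 for Uqcrfs1, -0.09 to 0.00 for Uqcrh, -0.07 to 0.04 for Cox4i2, -0.07 to 0.03 for Cox8b and -0.07 to 0.06 for Ndufaf3. Quantile normalization put Cox4i2 at 0.00, and without both replicate 1 arrays Cox4i2 was at -0.05, Ndufa4l2 at 0.05 and Ndufaf3 at 0.02. The cause was not tested.

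The deviations of same-numbered arrays of the lines correlated at 0.166, -0.0043 and -0.121 across features, for replicates 1, 2 and 3. Those of arrays with different numbers correlated at -0.182 to 0.227, a range that holds the other values. Whether the replicate numbers pair the lines was not tested. Features of several symbols put Cox7c at 0.04 and Ndufb4 at 0.03. Signal over background is unknown for members below the array medians.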
